A study of Mus musculus with 41 samples.

Results

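Intergenic RHOX10 peaks are the sites of RHOX10 binding that the authors' peak table assigned to neither a gene body nor a promoter. The table lists 5147 peaks, and the 539 whose class reads Intergenic were taken, whatever their score. For comparison, 3151 peaks are of the promoter-TSS class (TSS, transcription start site) and 771 of the intron class. Each of the 539 lists all 3 RHOX10 CUT&Tag libraries. CUT&Tag cuts and tags DNA where an antibody sits. The antibody bound an HA tag on Rhox10 delivered by lentivirus into cultured germline stem cells, which had been grown from neonatal C57BL/6 mouse testes and whose endogenous Rhox10 had been knocked down by shRNA. IgG and empty-vector libraries, 3 of each, served as controls in the study, and their signals are not analysed here. Binding was therefore measured for a tagged, re-introduced protein in a knocked-down culture.

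The genes that the table names for these peaks were followed in a pair of expression assays. RNA-seq compared 4 libraries labelled wild-type with 4 labelled Rhox10-null, each from the testes of 3 pooled C57BL/6 animals of an age the labels do not give, carrying an OCT4-eGFP reporter by which germ cells were sorted. The iSLAM-seq libraries, made with a 3′ end kit, came from germline stem cells with the same knockdown that carried either a Rhox10-ERT2-mCherry fusion, which responds to 4-hydroxytamoxifen, or the ERT2-mCherry empty vector (Ctrl), with 2 libraries per vector at each of 0, 0.5, 1, 2, 4 and 8 h. Levels are given as CPM, counts scaled by the TMM method to a common library size. Neither assay is normalised by gene length, so single genes are compared between samples and not with each other. Medians and shares of levels over sets of genes may differ with gene length.

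RHOX10 is an X-linked homeodomain protein of the male germline, where it is known for its part in forming spermatogonial stem cells. Homeodomains bind short AT-rich sites that often hold the core TAAT. Sequence between annotated genes can hold distal enhancers, promoters of unannotated or alternative transcripts, tRNA genes and repeats, and the nearest start site need not belong to the gene that such an element acts on. GC-rich, CpG-rich DNA with the GC box GGGCGG, which SP and KLF factors bind, is typical of promoters.

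To show what the bound DNA looks like, the 300 bases around the centre of 8 intergenic peaks are given on the plus strand of GRCm38. In each, TAAT and GGGCGG in either orientation are in capitals. The first comes from a high-scoring peak whose window holds no exon, named for Garnl3. Its centre lies 357 bases upstream of a Garnl3 start site in GENCODE M21. The next 3 are from a block of zinc-finger gene copies on chromosome 13, all assigned to Zfp369 and lettered A to C. The Mir148a window is shown as a TAAT-rich one. The last 3 are from peaks named for Nr4a3, Fos and Klf4, whose transcripts changed with time in iSLAM-seq. The Klf4 window is that of its peak of score 37.4, and all 3 distances are given below.
Garnl3, chr2:33130815-33131114: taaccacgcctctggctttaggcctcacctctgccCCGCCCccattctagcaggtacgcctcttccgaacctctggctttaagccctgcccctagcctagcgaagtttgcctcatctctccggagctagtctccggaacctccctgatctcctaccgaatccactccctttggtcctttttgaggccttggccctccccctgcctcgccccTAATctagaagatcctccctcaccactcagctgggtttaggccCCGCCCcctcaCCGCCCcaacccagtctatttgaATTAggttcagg
Zfp369 A, chr13:65351771-65352070: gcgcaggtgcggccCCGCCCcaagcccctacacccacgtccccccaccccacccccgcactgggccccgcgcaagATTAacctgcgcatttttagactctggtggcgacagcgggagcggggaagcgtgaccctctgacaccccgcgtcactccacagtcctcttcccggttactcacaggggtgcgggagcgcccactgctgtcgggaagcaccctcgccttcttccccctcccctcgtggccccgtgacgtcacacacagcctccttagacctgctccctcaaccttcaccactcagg
Zfp369 B, chr13:65420388-65420687: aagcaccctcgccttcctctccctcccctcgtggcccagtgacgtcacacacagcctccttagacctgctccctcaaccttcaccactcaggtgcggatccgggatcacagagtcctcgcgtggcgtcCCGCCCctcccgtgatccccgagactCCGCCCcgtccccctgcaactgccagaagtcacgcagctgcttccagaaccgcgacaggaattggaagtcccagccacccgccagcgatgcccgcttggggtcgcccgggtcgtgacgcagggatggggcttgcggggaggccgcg
Zfp369 C, chr13:65562763-65563062: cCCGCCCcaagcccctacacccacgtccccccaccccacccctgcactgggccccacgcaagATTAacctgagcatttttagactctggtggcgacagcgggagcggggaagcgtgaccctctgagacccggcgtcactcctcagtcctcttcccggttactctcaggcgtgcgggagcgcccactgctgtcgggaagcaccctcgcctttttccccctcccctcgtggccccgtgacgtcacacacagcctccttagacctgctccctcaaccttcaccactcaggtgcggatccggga
Mir148a, chr6:51178317-51178616: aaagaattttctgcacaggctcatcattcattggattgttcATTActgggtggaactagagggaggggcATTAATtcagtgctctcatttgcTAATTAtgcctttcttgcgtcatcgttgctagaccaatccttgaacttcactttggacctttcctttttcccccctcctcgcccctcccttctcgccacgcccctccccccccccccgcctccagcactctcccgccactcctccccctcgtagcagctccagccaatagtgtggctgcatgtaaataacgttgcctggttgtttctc
Nr4a3, chr4:48043260-48043559: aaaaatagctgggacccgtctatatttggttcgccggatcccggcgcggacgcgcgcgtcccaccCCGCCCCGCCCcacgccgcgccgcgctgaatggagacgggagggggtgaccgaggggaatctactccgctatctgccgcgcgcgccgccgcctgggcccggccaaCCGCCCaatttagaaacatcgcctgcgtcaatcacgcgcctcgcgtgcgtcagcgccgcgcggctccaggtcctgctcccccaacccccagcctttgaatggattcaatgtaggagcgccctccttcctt
Fos, chr12:85485894-85486193: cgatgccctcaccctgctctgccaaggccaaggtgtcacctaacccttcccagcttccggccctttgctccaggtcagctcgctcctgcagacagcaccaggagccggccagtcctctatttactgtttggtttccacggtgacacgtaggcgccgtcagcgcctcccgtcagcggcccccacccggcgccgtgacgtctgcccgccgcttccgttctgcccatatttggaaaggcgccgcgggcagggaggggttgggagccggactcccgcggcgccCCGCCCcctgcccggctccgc
Klf4, chr4:55480440-55480739: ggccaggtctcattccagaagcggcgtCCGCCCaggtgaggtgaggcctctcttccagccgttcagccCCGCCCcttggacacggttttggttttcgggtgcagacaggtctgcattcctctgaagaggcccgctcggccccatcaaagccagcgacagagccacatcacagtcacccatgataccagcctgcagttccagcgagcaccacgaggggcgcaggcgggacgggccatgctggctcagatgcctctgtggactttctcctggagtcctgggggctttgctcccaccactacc

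Composition differed widely between these windows. The Garnl3 window held 2 TAAT and 3 GC boxes with 11 CpG and 59.0% GC, whereas the Mir148a window held 5 TAAT and 0 GC boxes with 9 CpG and 52.7% GC. The Nr4a3 window had 40 CpG and the highest observed/expected CpG ratio of the 8, 1.19. Zfp369 windows A and C aligned to each other over 287 bases with 96.9% identity. Window B aligned with A over 92 bases with 96.7% identity and with C over 105 bases with 96.2% identity.

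A few facts of the whole data set bear on the results. The RNA-seq libraries held 6602089 to 8278887 counts and the iSLAM-seq libraries 9419615 to 12645845. The 2 Ctrl libraries at 0.5 h stood apart from each other (chi-square per degree of freedom 30.02, against 2.64 for the closest iSLAM-seq pair). Counts of Rhox10 itself ran from 3 to 10 in wild-type and from 4 to 11 in null RNA-seq libraries, or 0.716 ± 0.461 and 1.03 ± 0.392 CPM (SD, n = 4), an exact permutation p of 0.286 (two-sided). The counts thus do not verify the genotype labels, and directions in RNA-seq are those of the labels. In iSLAM-seq, Rhox10 was at 34.0 to 46.7 CPM in the 12 Rhox10 libraries and 0.202 to 2.42 CPM in the 12 Ctrl libraries, the 0 h libraries included. The 10 germ cell markers summed to 281 to 283 CPM in wild-type and 128 to 135 CPM in null RNA-seq libraries, and 9 of them were called lower in null. The 6 erythroid markers summed to 1.36 to 3.90 CPM in wild-type and 76.8 to 85.7 CPM in null, and all 6 were called higher. All 4 peritubular or stromal markers and all 4 tested Leydig markers were higher too. Of the 7 Sertoli markers 2 were higher and 1 lower. Of the 4 macrophage markers 2 were higher and 0 lower, and of the 4 endothelial markers 3 were higher and 0 lower. The part of these other cells in the RNA-seq results below was not tested, and in such bulk samples fewer cells of a type cannot be told apart from less RNA per cell. In iSLAM-seq the 6 erythroid markers were each under 1 CPM on average in both vectors, as were 4 of 5 Leydig markers, while the germ cell markers summed to 1944 to 2638 CPM, with Pou5f1 under 1 CPM, and 7 of the 10 were called lower in Rhox10 cells. Markers of other somatic cells were present in iSLAM-seq. The 4 peritubular or stromal markers summed to 466 to 724 CPM in Ctrl and 484 to 919 CPM in Rhox10 libraries, with 2 called higher and 1 lower. The Sertoli markers summed to 184 to 444 and 238 to 556 CPM (2 higher and 1 lower of 5 tested), and the endothelial ones to 31.3 to 46.8 and 19.8 to 32.0 CPM (3 of 4 lower). Their part in the iSLAM-seq results was not tested.

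The intergenic peaks were, in the middle of their range, the weaker ones of the table. The score is the authors' own value for each peak and is used here to rank peaks within the table. It ran from 14.7 to 1018 with a median of 62.9 (quartiles 38.4 and 128), beside medians of 166 for promoter-TSS and 80.9 for intron peaks. These are descriptions, since peaks are not replicates. Lengths ran from 452 to 1619 bases with a median of 647, beside 568 for promoter-TSS peaks. The nearest other peak of the table lay 80543 bases away in the median.

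By the table, the distance to the named start site ran from 1001 to 977080 bases with a median of 22154, and 377 peaks (69.9%, Wilson 95% confidence interval 65.9% to 73.7%) lay upstream of it. Within 3 kb lay 69 peaks, from 3 to 10 kb 102, from 10 to 50 kb 227, from 50 to 100 kb 78 and beyond 100 kb 63. Peaks close to the named start site scored higher, with a median of 116 within 3 kb, 63.2 from 3 to 10 kb and 52.2 from 10 to 50 kb. Beyond that the medians did not fall further, at 51.6 from 50 to 100 kb and 63.0 beyond 100 kb.

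**Figure D1:**
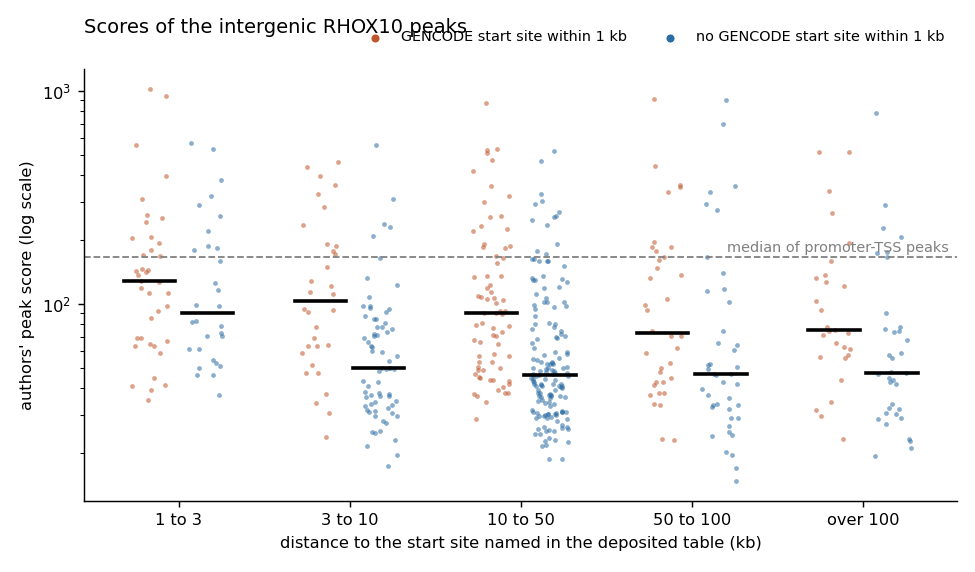
Authors' peak score (log scale) of each of the 539 intergenic peaks by the distance in kb to the start site in the deposited table. Points are peaks, in orange where GENCODE M21 has a start site within 1 kb and in blue where it has none, bars are medians, and the dashed line is the promoter-TSS median of 166. In each distance class the orange median lies above the blue one.

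Many of the peaks called intergenic sat at a start site of a fuller annotation. GENCODE M21 (GRCm38) has a start site within 1 kb of the peak centre for 207 of the 539 (38.4%, Wilson 95% confidence interval 34.4% to 42.6%), and 234 overlap a GENCODE gene (43.4%, 39.3% to 47.6%). Within 10 kb the share was 70.9% by GENCODE start sites and 31.7% by the table's distances. Of the 207 start sites, 118 belong to protein-coding genes, 39 to lincRNAs, 26 to pseudogenes and 24 to other classes. For 71 of the 207 the gene is the one the table names, at another of its start sites. Another 50 peaks lie inside a GENCODE gene away from its start sites, and 282 have neither a start site within 1 kb nor a gene.

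The table's distances can thus mislead for single peaks. The Pbx3 peak (chr2:34372923-34373378, score 946), near a gene for a TALE homeodomain partner of HOX proteins, is placed 1105 bases upstream of Pbx3 in the table and 8 bases upstream of a Pbx3 start site in GENCODE. The Chd8 peak (chr14:52257423-52258033, score 530), near a chromatin remodeller gene, is placed at -20156 bases in the table and lies 5 bases from a GENCODE start site of Chd8. The peak at chr6:145746170-145746666 (score 917) is named for Rassf8 at -61965 bases, and its centre lies closer to the start of the lincRNA Gm15704, upstream of it. That lincRNA averaged 0.443 CPM in RNA-seq and 0.0886 CPM in iSLAM-seq. The peak at chr7:97788287-97788892 (score 359) is named for Aqp11 at -50342 bases and lies 48 bases into Pak1, which encodes a p21-activated kinase. The share of peaks whose start site gene reached 1 CPM differed by class, though CPM is not normalised by gene length. For the protein-coding ones, 100 of the 118 peaks had a gene at 1 CPM or more in iSLAM-seq on average, for lincRNAs 14 of 39 and for pseudogenes 8 of 26.

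Peaks with and without a GENCODE start site differed in score and in base composition. The median score was 93.3 for the 207 with one and 49.2 for the 332 without. Their median GC content over 300 bases was 65.7% and 58.3%, and their median observed/expected CpG ratio 0.728 and 0.497. Over all 539 these medians were 61.0% and 0.619, beside 66.3% and 0.824 for promoter-TSS and 64.7% and 0.696 for intron peaks. The groups overlapped widely, as GC content ran from 41.0% to 79.3% with a start site and from 38.0% to 79.7% without.

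**Figure D2:**
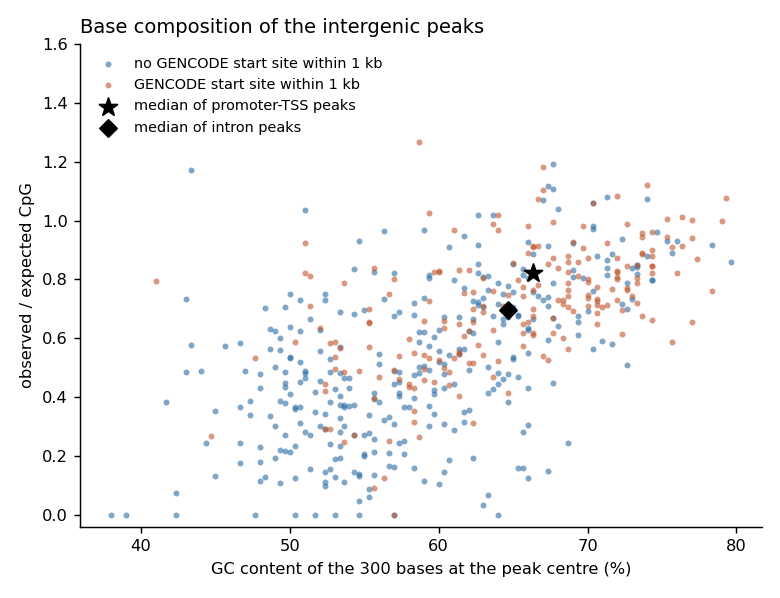
GC content (%) against the observed/expected CpG ratio in the 300 bases around the centre of each intergenic peak. Orange points have a GENCODE start site within 1 kb, blue points have none, and the star and diamond are the medians of promoter-TSS and intron peaks. Blue points extend to low GC and low CpG, while both colours occupy the CpG-rich corner.

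Short motifs were counted on both strands in the same 300 bases, with the share of 32851 RefSeq promoter sequences of equal length (GRCm38.p6, 250 bases before to 50 after the start) as background. The core TAAT was present in 205 intergenic windows (38.0%, Wilson 95% confidence interval 34.0% to 42.2%), in 26.2% of promoter-TSS windows, in 28.0% of intron windows and in 58.0% of RefSeq promoters. It was in 43.1% of windows without a start site and 30.0% of those with one. The longer TAATTA, which contains TAAT, was in 2.04% of intergenic windows and 5.29% of RefSeq promoters. The GC box GGGCGG was in 50.6% of intergenic windows (39.8% without and 68.1% with a start site), 78.5% of promoter-TSS windows and 35.7% of RefSeq promoters. The CCAAT box was in 32.1%, beside 40.01% and 37.4%, and the ETS core CCGGAAG in 7.24%, beside 18.5% and 8.86%. The AP-1 site TGANTCA was in 5.19%, beside 2.45% of promoter-TSS windows and 7.81% of RefSeq promoters. The E-box CACGTG was in 12.8%, 11.1% and 7.15% in the same order, and the CTCF core CTNGTGGC in 6.31%, 4.64% and 4.43%. A match is a description of the letters and no evidence of binding by the factor.

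Repeated and copied sequence was more frequent among intergenic peaks than in the other classes of the table. More than 50% of the window was soft-masked as repeat in 44 of the 539 (8.16%), beside 15 promoter-TSS peaks (0.476%) and 39 intron peaks (5.06%). At least 25% of the window's 20-base words recurred in the window of another peak for 41 intergenic (7.61%), 20 promoter-TSS (0.635%) and 19 intron peaks (2.46%). Annotated tRNA genes were overlapped by 11 intergenic peaks (2.04%), 4 promoter-TSS peaks and 0 intron peaks, which allows an intron share of up to 0.496% by the upper Wilson bound. Among the 11 are peaks named for Trim27 (chr13:21169567-21170530, score 73.3), Irgm1 (chr11:48856576-48857174, score 57.6), Eef2k (chr7:120835541-120836100, score 85.1) and Plxdc1 (chr11:97987862-97988924, score 82.2). Reads from copied sequence cannot be placed with certainty, and how the authors handled them is not given in the sources used here.

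The copies lie mainly in a few blocks of multigene families. Chromosome 13 from 65 to 67 Mb held 15 intergenic peaks among 16 peaks in all, with scores from 29.8 to 903. The peaks there are named for Zfp369, a KRAB zinc-finger gene, for Gm10324, for Uqcrb, which encodes a subunit of respiratory complex III, and for Nlrp4f and 2410141K09Rik. Zfp369, Gm10324 and Uqcrb had 4 intergenic peaks each, the most of any gene. The cAMP response element TGACGTCA occurred in 5 of these 15 windows and in 12 of all 539. Chromosome 14 from 3 to 8 Mb held 15 intergenic peaks of 21, and 13 of those shared words with another peak. A block of chromosome 4 with intergenic peaks between positions 145640422 and 147739085 held 9 of 15, and chromosome 12 from 19 to 24 Mb 7 of 10. Words were shared by 7 of the 15 intergenic peaks on chromosome 13, 6 of the 9 on chromosome 4 and 2 of the 7 on chromosome 12. Outside such blocks, Mir148a had 3 peaks, at -1215 bases (chr6:51270757-51271494, score 291), at 91443 bases (chr6:51178241-51178693, score 292) and at 96899 bases (chr6:51172764-51173259, score 139). Trmt9b, named 6430573F11Rik in the table, also had 3.

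The 539 peaks carry 489 gene names. Of the peaks, 534 matched a gene identifier of the count tables and 5 did not, which gave 484 genes. Of these, 405 had no promoter-TSS peak and 79 had one as well. A count filter left 323 of the 484 for RNA-seq and 380 for iSLAM-seq. A gene is said to be called, or to have risen or fallen, where edgeR's quasi-likelihood test gave an adjusted p under 0.05 over all genes tested.

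In RNA-seq the genes of intergenic peaks moved about as often as genes in general and in both directions alike. In libraries labelled null, 68 of the 323 were higher and 67 lower, 135 in all (41.8%), and the median log2 fold change was 0.01. Of all 13538 genes tested 37.5% were called, 18.6% higher and 18.9% lower, with a median log2 fold change of 0.00307. Members also had higher levels, with a median of 11.3 CPM beside 7.15 CPM for all genes tested, not normalised by gene length. The split depends on the scaling. With library totals the median of all genes shifted to 0.350 and members split into 188 higher and 16 lower, and with scaling to 20 germline genes the median shifted to 0.885 and 294 were higher and 0 lower. Directions below are relative to the TMM scaling. By distance, 42 of 109 tested genes with a peak within 10 kb were called (38.5%), 86 of 196 with one from 10 to 100 kb (43.9%) and 13 of 32 with one beyond 100 kb (40.6%).

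The largest rises by the naming rule (genotypes apart in every library and an average of 5 CPM or more) were in Nrg1, Eln, Zmat3, Pkdcc, Klf12 and Stox2. Nrg1, which encodes the ErbB ligand neuregulin, was at 4.36, 4.76, 5.09 and 4.75 CPM in the wild-type libraries and at 9.61, 8.08, 12.02 and 9.96 CPM in those labelled null. Every null library lay above every wild-type one, with a log2 fold change of 1.07 (standard error 0.145, edgeR adjusted p = 1.09e-07). Its peak (chr8:32009286-32009826, score 136), placed at -91353 bases in the table, lies 65 bases from another Nrg1 start site in GENCODE. Eln, which encodes elastin, was at 10.8, 13.5, 12.9 and 13.7 CPM in wild-type and at 25.6, 23.97, 23.9 and 23.95 CPM in null, a log2 fold change of 0.94 (standard error 0.0874, edgeR adjusted p = 9.65e-12). Its peak, of score 64.3, lies 52736 bases upstream. Zmat3, a p53 target encoding an RNA-binding zinc-finger protein, rose by 0.83 on the log2 scale, the kinase gene Pkdcc by 0.81, the repressor gene Klf12 by 0.71 and Stox2 by 0.64. The peak named for Zmat3 at -31357 bases lies within 1 kb of a GENCODE start site of another gene, Pik3ca. Pik3ca was not called in RNA-seq (log2 fold change 0.027, edgeR adjusted p = 0.803). The Klf12 peak at -135478 bases lies within 1 kb of another Klf12 start site. Eln and Pkdcc are expressed in connective tissue, whose markers were higher in the same libraries.

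The largest falls were in Rps6ka1, Casz1, Phb, Dennd2c, Parp1 and Pcgf5. Rps6ka1, the gene for the ribosomal S6 kinase RSK1, was at 7.52, 10.3, 8.48 and 8.41 CPM in wild-type and at 4.59, 4.90, 4.21 and 4.84 CPM in null, so the genotypes did not overlap. Its log2 fold change was -0.90 (standard error 0.144, edgeR adjusted p = 2.72e-06), and its peak (chr4:133910506-133911067, score 303) lies 22989 bases upstream. Parp1, which encodes a poly(ADP-ribose) polymerase that senses DNA breaks, was at 66.2, 69.2, 64.6 and 67.2 CPM in wild-type and at 39.8, 41.3, 40.5 and 40.4 CPM in null. Its log2 fold change was -0.72 (standard error 0.0542, edgeR adjusted p = 1.43e-14). Casz1, a zinc-finger transcription factor gene, changed by -0.86, Phb, which encodes the mitochondrial scaffold prohibitin, by -0.74, Dennd2c by -0.73 and the Polycomb gene Pcgf5 by -0.69. With scaling to germline genes each of these 6 but Rps6ka1 had a positive fold change, from 0.0181 for Casz1 to 0.190 for Pcgf5. The Dennd2c and Pcgf5 peaks (scores 525 and 134) lie 9 and 390 bases from further GENCODE start sites of those genes.

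**Figure D3:**
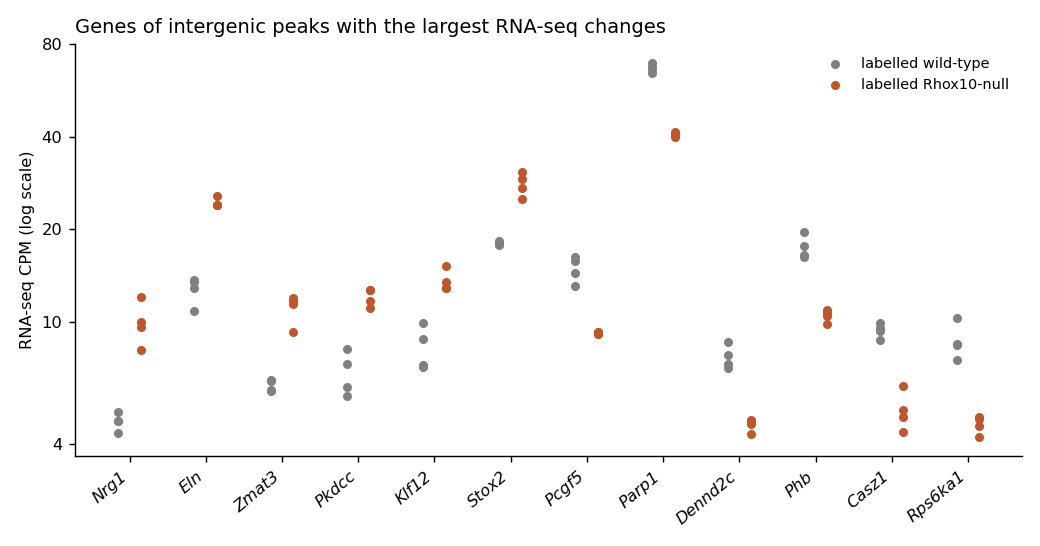
RNA-seq CPM (log scale) in each of the 4 libraries labelled wild-type (grey) and the 4 labelled Rhox10-null (orange), for the 6 largest rises and 6 largest falls among genes of intergenic peaks. The genotypes overlap in none of the 12 genes, which the rule for naming them required.

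In iSLAM-seq many genes of intergenic peaks differed between the vectors, again in both directions. Averaged over 0.5 to 8 h, 88 of the 380 tested were higher in Rhox10 than in Ctrl cells and 89 lower, 177 in all (46.6%), with a median log2 fold change of -0.0063. The background was 37.1% of 20642 genes, 18.7% higher and 18.4% lower. Members had a median of 29.1 CPM, beside 9.48 CPM for all genes tested, and genes of promoter-TSS and intron peaks, at medians of 38.7 and 27.7 CPM, were called in 48.7% and 48.3%. Already at 0 h 46 members were higher and 24 lower, 18.4% beside a background of 10.9% (6.56% higher, 4.32% lower). At 8 h 41 were higher and 56 lower, 25.5% beside 16.8% (8.06% higher, 8.79% lower). Of the 177 averaged calls, 63 passed the 0 h test as well, and 62 kept their sign there. The average therefore holds differences between the 2 cultures that were there at 0 h. Both assays called 69 members, 51.1% of the RNA-seq and 39.0% of the averaged iSLAM-seq calls, and the signs were alike for 44 (63.8%) and opposite for 25. Over all genes the assays shared 47.4% of the RNA-seq and 31.4% of the averaged calls, with like signs in 73.4%.

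The rises of smallest p with 1 sign at all 5 induced times were Mmp2, Etv1, Sox4, Itgb1, Marcks and Nrg1. Mmp2, which encodes a matrix metalloprotease, had its lowest, median and highest values at 125, 129 and 192 CPM in the 10 induced Ctrl libraries and at 329, 375 and 419 CPM in the 10 Rhox10 libraries. These ranges did not overlap. Mmp2 is also expressed by stromal cells, whose markers are given above. The averaged log2 fold change was 1.45 (standard error 0.0414, edgeR adjusted p = 1.03e-17), against 1.52 at 0 h. Itgb1, the integrin beta-1 gene and a member of the spermatogonial list, was at 517, 547 and 564 CPM in Ctrl and 654, 699 and 791 CPM in Rhox10, a log2 fold change of 0.37 (standard error 0.0241, edgeR adjusted p = 2.39e-11). It was one of 6 genes higher of 37 tested on that list, of which 23 were lower, and it was not called in RNA-seq (edgeR adjusted p = 0.352). Sox4, a SOX-family transcription factor gene, rose by 1.02, Marcks, which encodes a protein kinase C substrate, by 0.79, and Nrg1 by 0.93 (1.46 at 0 h). At 0 h, Mmp2, Etv1, Sox4, Itgb1, Marcks and Nrg1 were each already higher in both Rhox10 libraries than in either Ctrl library.

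The falls of smallest p were Tcf15, Adgrl1, Cenpf, Pdzd2, Rbfox2 and Parp1. Tcf15, which encodes a basic helix-loop-helix factor, was at 128, 173 and 187 CPM (lowest, median, highest) in the 10 induced Ctrl libraries and at 76.7, 93.9 and 104 CPM in the Rhox10 libraries, without overlap. Its averaged log2 fold change was -0.85 (standard error 0.0461, edgeR adjusted p = 9.68e-13), against -0.72 at 0 h. Pdzd2 changed by -0.68, Rbfox2, a splicing factor gene, by -0.38, the latrophilin gene Adgrl1 by -0.37, Parp1 by -0.35 and Cenpf, a kinetochore gene of dividing cells, by -0.30. Each of these genes was already lower in both Rhox10 libraries than in either Ctrl library at 0 h. Parp1 and Cenpf were lower in null RNA-seq libraries too, except with germline scaling (0.16 and 0.48), whereas Adgrl1, Pdzd2 and Rbfox2 were higher there.

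The test of a change from 0 h asks where the difference between the vectors moved after induction. It called 23 of the 380 members (6.05%), 18 with their largest change downwards and 5 upwards. Over all genes 2.39% were called, 1.54% downwards and 0.853% upwards. The shares were 3.54% for genes of promoter-TSS peaks and 4.03% for genes of intron peaks, and the difference between these classes was not tested. With library totals 21 were called, 14 downwards and 7 upwards, a count given without the share of all genes. The count moved with the libraries used. Without the 4 libraries of 0.5 h, and so without that time in the test, 65 members (17.3%, beside 7.35% of all genes) were called. Without Ctrl replicate 1 of 0.5 h 130 were called (33.4%, beside 19.5%), and without replicate 2 67 (17.2%, beside 7.01%). In these fits the remaining library of the pair is assumed to vary like the other groups. The pair disagreed widely, for example at 139 CPM in replicate 1 and 31.4 CPM in replicate 2 for Nr4a1. Leaving out Ctrl replicate 1 of 8 h gave fewer calls, for which no share of all genes is given.

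The 10 of smallest p all fell, and 4 of them are on the list of immediate-early genes, which answer growth factors and stress within minutes. Among them were Fosb, Fos, Dusp2, Ndrg1, Btg2, Klf4, Hmox1, Nr4a3 and Mcl1. Fosb, an AP-1 subunit gene, was at 66.2 and 64.8 CPM at 0 h in the 2 Ctrl libraries and at 173 and 164 CPM in the 2 Rhox10 libraries. At 1 h the Ctrl libraries were at 69.8 and 74.1 CPM and the Rhox10 libraries at 178 and 171 CPM, and at 8 h at 11.3 and 13.6 CPM and at 4.87 and 3.97 CPM. The vectors did not overlap at any of these times, and the order turned. As log2 fold changes the difference was 1.37 at 0 h, -1.14 at 4 h and -1.50 at 8 h, with an edgeR adjusted p of 5.27e-10 for the change. Its peak (chr7:19324667-19325397, score 59.6), 14987 bases upstream, has a window that is fully repeat-masked and shares words with other peaks.

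Fos, whose product pairs with JUN proteins to form AP-1, was at 190 and 192 CPM in Ctrl and 249 and 261 CPM in Rhox10 at 0 h. At 4 h it was at 50.1 and 47.8 CPM in Ctrl and at 16.86 and 16.996 CPM in Rhox10. It was lower at 4 h than at 0 h in both vectors, and the log2 fold change between them moved from 0.42 to -1.53 (edgeR adjusted p = 1.88e-08 for the change). The Fos peak shown above (chr12:85485710-85486378, score 171) lies 12143 bases downstream of the start site and 11133 bases from the nearest one in GENCODE. The orphan nuclear receptor gene Nr4a3, whose peak (chr4:48043156-48043664, score 380) lies 1895 bases upstream, was at 15.4 and 18.4 CPM in Ctrl and 31.9 and 30.7 CPM in Rhox10 at 0 h. At 8 h it was at 4.67 and 9.46 CPM in Ctrl and at 1.76 and 1.55 CPM in Rhox10, where it was lower in both libraries. The log2 fold change went from 0.89 to -2.08 (edgeR adjusted p = 1.21e-05 for the change).

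Klf4, a Krüppel-like factor gene of the reprogramming set, has a pair of intergenic peaks at 17633 and 51885 bases (scores 36.0 and 37.4). The window shown above is from the farther peak. Klf4 was at 114 and 117 CPM in Ctrl and 198 and 179 CPM in Rhox10 at 0 h, and at 133 and 137 CPM and 81.6 and 80.4 CPM at 4 h. The log2 fold change went from 0.71 to -0.74 (edgeR adjusted p = 2.17e-06 for the change). For Btg2, an antiproliferative gene, the difference was 0.87 at 0 h and -0.38 at 4 h. For Hmox1, the haem oxygenase gene, it was 0.97 at 0 h and -0.31 at 8 h. Dusp2, a phosphatase gene acting on MAP kinases, was at 109 and 117 CPM at 4 h in Ctrl and at 41.9 and 37.9 CPM in Rhox10, with log2 fold changes of 0.42 at 0 h and -1.50 at 4 h. Ndrg1, a stress-responsive gene, was above Ctrl at 0 h (0.92) and 4 h (0.70) and below it at 8 h (-0.97). Mcl1, an anti-apoptotic BCL2-family gene with a peak of score 33.4 at 5916 bases, went from 0.43 to -0.30. Of the 26 genes on the immediate-early list 25 were tested, and 19 fell and 0 rose in this test, with a median largest change of -1.31 beside -0.092 over all genes. The 5 of them with an intergenic peak, Btg2, Fos, Fosb, Nr4a1 and Nr4a3, are among the 19.

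**Figure D4:**
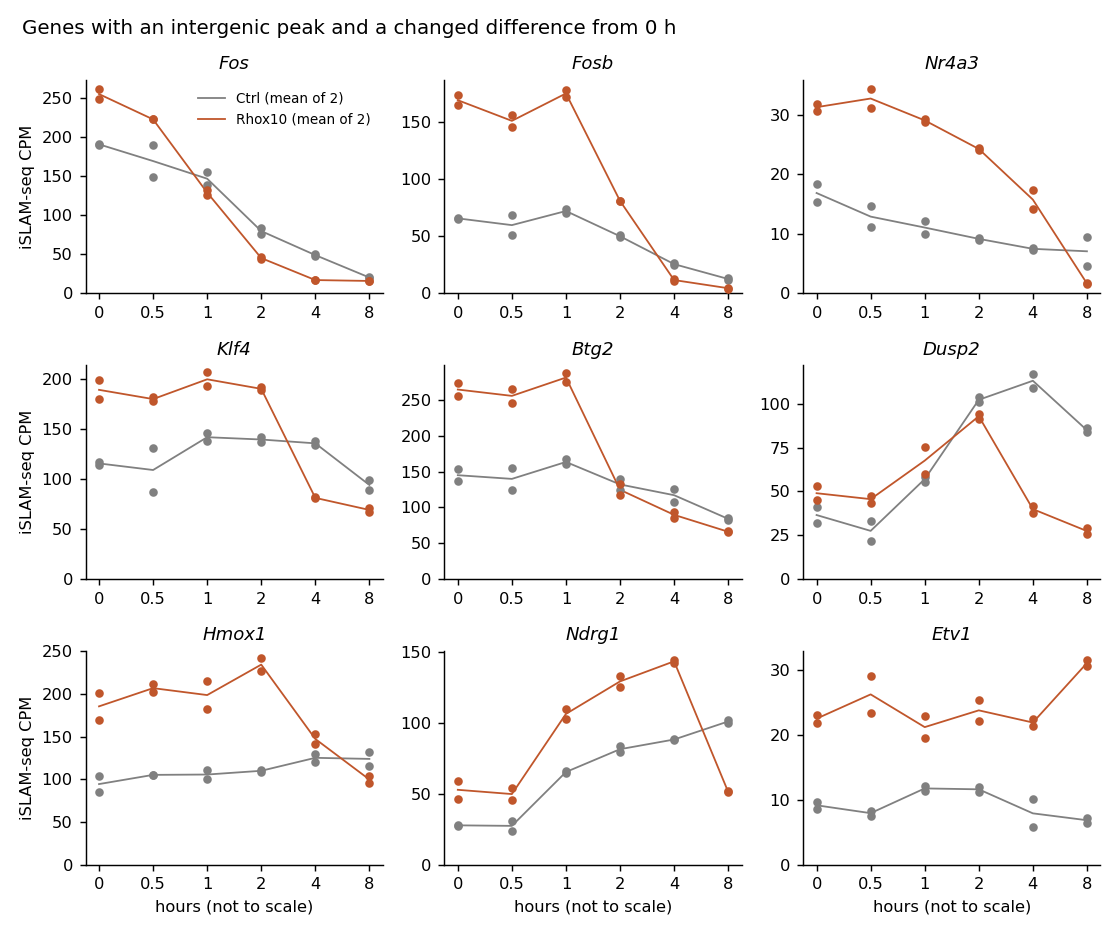
iSLAM-seq CPM of 9 genes of intergenic peaks that were called for a change of the difference from 0 h, at 6 times in hours (evenly spaced, not to scale), in Ctrl (grey) and Rhox10 (orange). Points are the 2 libraries of each group and lines join their means. In Fos, Fosb, Nr4a3, Klf4 and Btg2 the orange line starts above the grey one and ends below it, while in Etv1 it lies above throughout.

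Upward changes were in Etv1, Itgb3, Trim56, Irgm1 and Zmym2. Etv1, an ETS factor gene of the family that includes the stem cell factor Etv5, was at 9.68 and 8.62 CPM in Ctrl and 23.1 and 21.8 CPM in Rhox10 at 0 h, and at 6.48 and 7.22 CPM and 30.5 and 31.5 CPM at 8 h. Its log2 fold change was 1.296 at 0 h and 2.18 at 8 h (edgeR adjusted p = 0.049 for the change), and the Etv1 peak (chr12:38778463-38779108, score 241) lies 1297 bases upstream. This call was lost in 19 of 24 fits without 1 library. The calls of Irgm1 and Trim56 were each lost in 3 such fits and that of Zmym2 in 6, all of them fits without a library of 4 or 8 h. Trim56, an antiviral ubiquitin ligase gene, and Irgm1, an interferon-induced GTPase gene, were near 0 difference at 0 h (0.05 and -0.09) and at 1.04 and 1.25 at 8 h. The interferon list held 0 genes with an intergenic peak, and 25 of its 34 genes rose in this test. The Irgm1 peak is one of those that overlap annotated tRNA genes, as given above.

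In RNA-seq, 21 of the 23 genes were tested, and 12 were called, 11 of them higher in libraries labelled null, where the background over all genes is 37.5% called and 18.6% higher. These 11 stayed higher with library totals and with germline scaling. Those scalings cannot test the rises, since both shift the fold changes of all genes upwards. Fosb was at 329, 332, 338 and 337 CPM in wild-type and 481, 475, 472 and 469 CPM in null, a log2 fold change of 0.51 (standard error 0.0416, edgeR adjusted p = 2.55e-13). Fos was at 242, 258, 243 and 247 CPM and at 315, 299, 304 and 289 CPM, a log2 fold change of 0.28 (edgeR adjusted p = 1.39e-06). In both genes every null library exceeded every wild-type one. Nr4a1 changed by 0.49, Hmox1 by 0.48, Per1, a circadian clock gene, by 0.46, Klf4 by 0.40, Btg2 by 0.34 and Trim56 by 0.64. The exception was the integrin gene Itgb3, at -0.46 (0.42 with germline scaling).

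Of the 85 genes on the homeobox list, 9 carried an intergenic peak. Among them were Pbx3, Pou3f2, Pou4f1, Six2, Cdx2, Cux2, Zeb2 and Zfhx3. Zeb2, a repressor gene of epithelial programmes, was higher in null RNA-seq libraries (32.2 ± 1.59 and 47.1 ± 3.66 CPM, SD, n = 4, log2 fold change 0.55, edgeR adjusted p = 2.69e-09) and in Rhox10 iSLAM-seq libraries (averaged log2 fold change 0.61). Pou4f1, a POU-domain gene, and Zfhx3 were lower in null (-0.65 and -0.22), and both signs turn with germline scaling (0.23 and 0.67), that of Zfhx3 also with library totals (0.13). The Zfhx3 call was lost without wild-type replicate 4, null replicate 1 or null replicate 2 (edgeR adjusted p from 0.0525 to 0.0638). In iSLAM-seq, Cdx2 (-0.41) fell and Six2 (0.47) rose, while Pbx3 (0.04), Cux2 (-0.13) and Zfhx3 (0.02) were not called. The Six2 call was lost in 10 of 24 fits without 1 library, with a log2 fold change of 0.34 without Ctrl replicate 2 of 0.5 h (edgeR adjusted p = 0.0585). Pou3f2 was at no more than 1.14 CPM in any induced library. On the whole homeobox list 17 of 34 tested genes were higher and 8 lower in RNA-seq, and 27 of 73 higher and 14 lower in the averaged iSLAM-seq contrast. Over all genes 18.6% were higher and 18.9% lower in RNA-seq, and 18.7% and 18.4% in the averaged contrast.

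Of the imprinted genes, H19, a noncoding RNA, had a peak of score 26.2 at -33333 bases and rose in null libraries by 0.27, and Snrpn had one of score 30.6 at -352299 bases and was not called there (0.41, edgeR adjusted p = 0.253). On the imprinted list 16 of 24 tested genes were higher and 0 lower in RNA-seq, beside the same 18.6% and 18.9% of all genes. Col1a1, a collagen gene and the one somatic list gene with an intergenic peak (score 37.1, -7315 bases), rose in null libraries by 0.54, and 21 of the 29 somatic genes tested were higher and 1 lower, against the same background. The lists of differentiation and interferon genes held 0 members.

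The genes of the 10 highest-scoring peaks did not share a direction. Auts2, a neurodevelopmental gene whose product acts with Polycomb complexes, had the highest score of the class (chr5:132543260-132543980, 1018, 1277 bases upstream and 276 from a GENCODE start site). It was higher in null libraries (0.35) and lower in Rhox10 cells (-0.25). Igf2bp3, which encodes an RNA-binding protein (chr6:49217836-49218396, score 552, 3162 bases upstream), rose in null libraries by 0.58 and in Rhox10 cells by 0.14. At 0 h it was already at 94.2 and 96.4 CPM in Rhox10 and at 72.0 and 70.7 CPM in Ctrl. Fbxw7, the substrate receptor of an SCF ubiquitin ligase (score 556), was lower in both (-0.25 and -0.19), its RNA-seq call being lost without any of 5 single libraries and its sign turning with library totals (0.09) and germline scaling (0.63). Rassf8 rose in both (0.37 and 0.63), and its RNA-seq call was lost without null replicate 1 (edgeR adjusted p = 0.0808). Zfp369 rose in null libraries (0.49), with the caution that reads of its family are shared. Pbx3 (0.27), Garnl3 (0.09), Cxxc5 (-0.17) and Rad21l, a meiotic cohesin gene (-0.17), were not called in RNA-seq.

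The 5 shortest distances, from 1001 to 1042 bases, belong to peaks of Kmt2d, Mex3b, Zbtb14, Eapp and a pair tied at 1042 bases, Fbxo11 and Fbxw7. Kmt2d, a histone methyltransferase gene, rose in null libraries by 0.16 and Mex3b, which encodes an RNA-binding protein, rose in Rhox10 cells by 1.33. Eapp and Zbtb14 were called in neither contrast. The Eapp peak at -1031 bases lies 143 bases from a start site of the snRNA gene Gm22513. That gene was lower in null libraries (-0.35, edgeR adjusted p = 0.00402). The Kmt2d and Mex3b peaks lie 407 and 766 bases from start sites of Gm49437 and Gm36584, which averaged under 1 CPM in both assays. The 5 longest, from 619254 to 977080 bases, are of peaks named for Mms22l, 5730507C01Rik and 1700030C10Rik. Those at 977080, 873398, 773916 and 619254 bases lie within 1 kb of GENCODE start sites of other genes. These are Gm11889, Gm5784, Gm5953 and Gm48667, in that order. Mms22l, a replication repair gene with peaks at -839094 and -977080 bases, was lower in Rhox10 cells by 0.52 on the log2 scale at 0.5 to 8 h and by 0.54 at 0 h.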

How the data were processed

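RHOX10 binding was measured by CUT&Tag in germline stem cells and RNA by RNA-seq and iSLAM-seq, 41 samples in all. The peak table holds a score for each peak, which the authors deposited with its position, class, nearest gene and distance. No source used here says how the score was made. The deposited expression tables hold whole-number counts per gene. Per the submitters' processing notes, the tools were Bowtie2 2.2.5, SAMtools and HOMER for mm10 and STAR 2.5.2b, Subread, featureCounts, DESeq2 and limma 3.42.2 for GRCm38. The strand setting of the counting is not given in the sources used here, nor whether iSLAM-seq counts hold converted reads alone.

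Counts were filtered with filterByExpr, scaled by TMM and tested with edgeR 4.0.16 (quasi-likelihood, two-sided, Benjamini-Hochberg over all genes tested) in R 4.3.3. Each assay was fitted on all its libraries. The change from 0 h was a joint test of the vector difference at the 5 later times against that at 0 h, and its direction is that of the largest change. Alternatives used limma 3.58.1 and DESeq2 1.42.0. Nothing ties the libraries of a group to separate animals or cultures beyond their labels. The p-values thus rest on the spread between libraries, which may be technical. In RNA-seq the chi-square per degree of freedom was 1.25 for wild-type replicates 2 and 3, the closest pair. It ran from 4.59 to 5.13 for the pairs that include null replicate 4. In simulated data with 200 genes changed by 1 on the log2 scale, 183 were recovered for RNA-seq and 80 for the change from 0 h.

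Peak sequence came from GRCm38. The table's distances matched RefSeq GRCm38.p6 start sites to within 100 bases for 474 of 534 peaks. Start sites and genes came from GENCODE M21, promoters from RefSeq. The deposited table has no detailed annotation column, so soft-masked bases stood in for a repeat class. Wilson intervals cover counting error only.

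Members and lists were chosen with earlier results of these data known. Named with values were the 10 highest scores, the 5 shortest and 5 longest distances, genes with 3 or more peaks, the 6 largest rises and falls in RNA-seq (mean of 5 CPM or more, genotypes apart), the 6 rises and 6 falls of smallest p in averaged iSLAM-seq (1 sign at 5 times), the 10 smallest p for the change from 0 h, genes called there and in RNA-seq (8 at most), and members on the gene lists. The peaks of Chd8 and Aqp11, the tRNA examples and the genes that changed upwards from 0 h were chosen after their values were seen. Some genes and a sequence that these rules name are not reported here.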

Additional observations from a re-analysis of the deposited data

Results flagged for a closer look

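Single libraries stood apart from the other 3 of their RNA-seq genotype in 8 of 114 groups of 4 examined, where chance alone flags about 1 in 20, or 5.7. The gap to the nearest library, as a share of the group's range, was 0.964 for Eln, 0.841 for Garnl3, 0.838 for Kmt2d, 0.916 for Marcks, 0.873 for Per1 and 0.899 for Zbtb14 among null libraries. It was 0.901 for Fbxw7 and 0.968 for Uqcrb among wild-type libraries.

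The vector difference in iSLAM-seq depended on time for 23 genes of intergenic peaks, by edgeR's test of the change from 0 h. The adjusted p was 5.27e-10 for Fosb, 1.88e-08 for Fos, 8.82e-08 for Dusp2, 2.67e-07 for Ndrg1 and 3.59e-07 for Btg2. It was 2.17e-06 for Klf4, 2.57e-06 for Hmox1, 1.21e-05 for Nr4a3 and 3.48e-05 for Mcl1. For Bach2 edgeR's adjusted p was 0.000888, for Gclc 0.00141, for Itgb3 0.00294, for Smad7 0.00541 and for Nr4a1 0.00609. For Trim56 it was 0.0106, for Zmym2 0.0212, for Irgm1 0.0233 and for Sertad2 0.0273. The weakest were Shisal1 at 0.0418, Per1 at 0.0455 and Etv1 at 0.049.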

How the results depend on the processing

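The peak results moved with the peaks and the annotation used. The median score was 54.0 beyond 10 kb. For peaks scoring at least the median of all peaks, 37.0% lay within 10 kb of a start site, 51.9% overlapped a gene and the median GC content was 66.3%. The share within 10 kb was 70.9% by GENCODE start sites, the overlap share 31.7% where 50% of the peak had to overlap, and the median GC content 58.8% over whole peaks. The share with an annotated repeat was not run.

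RNA-seq calls rose from 135 to 204 with library totals and 294 with germline scaling, and 9 had a log2 fold change of at least 1. That threshold left 14 calls for averaged iSLAM-seq, 12 for the change from 0 h, 8 at 0 h and 21 at 8 h. The change from 0 h gave 38 calls with no filter, 14 for genes of the nearest GENCODE start site and, in an alternative added after the data were seen, 65 without the 0.5 h libraries. Leaving out 1 library gave 120 to 135 calls in RNA-seq, 157 to 209 averaged, 38 (without Rhox10 0 h replicate 2) to 104 (without Ctrl 0.5 h replicate 2) at 0 h, 57 (without Rhox10 8 h replicate 2) to 122 (without Ctrl 0.5 h replicate 1) at 8 h, and 15 (without Ctrl 8 h replicate 1) to 130 (without Ctrl 0.5 h replicate 1) for the change. The cause of these shifts was not tested. Here and below, the share of all genes is not given for most settings. Such counts describe the members alone and cannot be set against genes in general.

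RNA-seq fold changes turned positive with library totals for Fbxw7 (0.095), Sox4 (0.17) and Zfhx3 (0.13). With germline scaling they did for Casz1 (0.0181), Cenpf (0.48), Dennd2c (0.15), Fbxw7 (0.63), Itgb3 (0.42), Parp1 (0.16), Pcgf5 (0.19), Phb (0.14), Pou4f1 (0.23), Sox4 (0.71), Uqcrb (0.46) and Zfhx3 (0.67). No named gene reversed in the 3736 results that left out 1 library, of which 277 lost their call. For the change from 0 h these included 21 fits for Shisal1, 19 each for Per1 and Etv1, 11 for Sertad2, 6 for Zmym2 and 3 each for Irgm1 and Trim56.

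Replicate numbers did not pair the samples, with correlations of same-numbered deviations from -0.019 to 0.014 in RNA-seq and -0.015 to 0.035 in iSLAM-seq. With the number as a replicate block, 139 genes were called in RNA-seq, 177 averaged, 23 for the change, 70 at 0 h and 99 at 8 h. Of 185 results for named genes 2 lost their call under the block, Etv1 for the change (edgeR adjusted p = 0.0606) and Fos at 8 h (edgeR adjusted p = 0.0505).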
